A study of Homo sapiens with 16 samples.

Results

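The small nucleolar RNAs (snoRNAs) and the small Cajal body RNAs (scaRNAs) were followed across 16 RNA sequencing libraries of U2OS, a human osteosarcoma cell line. The members were selected on their own measured values: genes named SNORD, SNORA or SCARNA with a read in at least 8 of the 16 libraries. They numbered 101 of the 568 genes with such names and of 28207 human genes in all: 29 box C/D snoRNAs (SNORD), 59 box H/ACA snoRNAs (SNORA) and 13 SCARNA genes. Being detected chose the members, so their detection is no finding. At the threshold, the 7 members with reads in exactly 8 libraries held 9 to 14 reads in total, and the 8 genes left out with reads in 7 libraries held 7 to 15.

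Each library carries in its labels one of 4 numbers (zdna1, zdna2, zdna3 or zdna4) together with CL or CC, called arms here. The 8 groups are zdna1_CL, zdna1_CC, zdna2_CL, zdna2_CC, zdna3_CL, zdna3_CC, zdna4_CL and zdna4_CC, with 2 replicates each. Neither the numbers nor the arms are spelled out, no arm is named as a control, and the labels do not say whether the replicates are separate cultures, so the p-values may measure technical spread alone. All 8 groups share the U2OS background, and the series title places them in a study of MYC, the chaperone FACT and Z-DNA.

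Human-gene reads ran from 39335 to 310187 per library, with the fewest in zdna4 CC, so 1 read was worth 3.22 to 25.4 CPM (a read count divided by the library's human-gene total, on a common scale). Members took 0.330% to 0.681% of them, 135 to 1378 reads, spread over 40 to 98 members. At the read density of 422 olfactory receptor genes, which these cells should hardly transcribe, the members of a class would have drawn at most 1.13 reads in any library. Those genes held 1500 and 1541 CPM in zdna4 CC, against 63.6 to 420 CPM in the libraries of the other groups. The zdna4 CC libraries thus stood apart in more than depth, and what this adds to the zdna4 differences was not tested. Of the osteoblast lineage markers, COL1A1 held 34 to 341 reads and SPARC 18 to 299. RUNX2 held at most 11, COL1A2 and ALPL at most 3 each, and IBSP and BGLAP 0 in every library. Of markers that the line should lack, EPCAM held at most 2 reads, PTPRC and ALB at most 1, and CD3E and HBB 0. Each file also counts 1 added contig named for its number, with 514 to 394987 reads, most of all in zdna3 CC. It was left out of all levels, and its part in the results was not tested.

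Box C/D snoRNAs guide the methyltransferase fibrillarin to ribosomal RNA for 2'-O-methylation, and box H/ACA snoRNAs guide the pseudouridine synthase dyskerin. A few of either kind, among them U3 (SNORD3A) and U17 (SNORA73A and SNORA73B), act in the cleavage of the ribosomal RNA precursor and not in its modification. scaRNAs carry the same boxes but stay in Cajal bodies, where they guide modification of spliceosomal RNAs. Most human snoRNAs are processed from introns of host genes, often genes for ribosomal proteins or translation factors. A few have a promoter of their own.

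The sequences of 5 members on which the results turn show these boxes. They are GENCODE 29 transcripts of the GRCh38 build and are printed 5' to 3' as DNA. SNORD33 has 85 bases there against 83 in the counted hg19 gene, and SNORD32A 84 against 82. SNORA73A has 206 against 207, and SNORA73B 204 against 205. In the box C/D members the capitals mark the C box letters TGATGA within the first 20 bases and the D box letters CTGA within the last 20. In the box H/ACA members they mark the letters ACA within the last 6 bases. SNORD3A matched the D box letters alone.
SNORD33: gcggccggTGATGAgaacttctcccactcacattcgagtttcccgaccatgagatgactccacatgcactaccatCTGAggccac
SNORD32A: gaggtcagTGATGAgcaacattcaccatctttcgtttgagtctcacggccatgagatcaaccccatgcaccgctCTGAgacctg
SNORD3A: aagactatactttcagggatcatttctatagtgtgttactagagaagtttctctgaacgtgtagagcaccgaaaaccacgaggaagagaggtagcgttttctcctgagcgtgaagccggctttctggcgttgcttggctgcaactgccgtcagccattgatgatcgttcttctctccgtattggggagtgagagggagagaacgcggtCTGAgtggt
SNORA73A: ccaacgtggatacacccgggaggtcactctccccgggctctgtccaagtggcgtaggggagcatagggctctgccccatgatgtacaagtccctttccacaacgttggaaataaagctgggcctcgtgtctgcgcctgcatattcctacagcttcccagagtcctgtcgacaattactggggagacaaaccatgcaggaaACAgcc
SNORA73B: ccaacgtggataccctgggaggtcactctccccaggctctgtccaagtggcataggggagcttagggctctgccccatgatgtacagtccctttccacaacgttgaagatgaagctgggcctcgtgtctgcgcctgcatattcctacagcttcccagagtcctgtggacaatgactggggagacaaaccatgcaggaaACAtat

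SNORA73A and SNORA73B were identical at 192 of 206 aligned positions (93.2%), the closest pair among members above 50 CPM. SNORA22 and SNORA22C (98.5%) and SNORA40 and SNORA40B (96.9%) were closer still among the rarer members. The headers name files of uniquely aligned reads, so reads over stretches that such copies share were not assigned to either. Sequences were taken where a transcript of the same name lay within 10 bases of the counted gene's length. Searched on the transcript strand alone, both C/D patterns occurred in 18 of the 24 SNORD members with such a sequence, in 0 of 58 SNORA members and in 4 of 11 SCARNA members. The ACA pattern occurred in 54 of 58 SNORA, 4 of 24 SNORD and 6 of 11 SCARNA members. Among the 28287 other GENCODE transcripts of 60 to 450 bases, 12 held both C/D patterns and 1941 (6.86%) the ACA pattern. These matches use the letters alone and show no site.

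Few members carried most of the signal. SNORD3A gave 1977 of the 3951 box C/D reads, and SNORD3A with SNORD33 gave 69.8%. SNORA73B and SNORA73A together gave 45.2% of the 4870 box H/ACA reads, and SCARNA10 gave 41.2% of the 1288 SCARNA reads. Of the 101 members, 14 had reads in every library. By length, members were 18 of the 277 genes under 100 bases (6.50%), 64 of the 206 genes from 100 to under 150 bases (31.1%) and 19 of the 85 longer ones (22.4%), shares set by the reads that chose the members. Whether the library preparation kept the shortest RNAs was not tested.

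Per length, SNORD3A led at 4500 RPKM (the mean CPM over 16 libraries, per kilobase of gene). SNORD33 followed at 4228, SNORA73B at 3202, SNORA73A at 2430 and SNORD32A at 1098 RPKM. The next box C/D members were SNORD15B at 491 and SNORD83B at 459 RPKM, in introns of the ribosomal protein genes RPS3 and RPL3. The next box H/ACA members were SNORA62 at 654, SNORA33 at 594 and SNORA63 at 532 RPKM, in introns of RPSA, RPS12 and EIF4A2. Among the SCARNA genes the order was SCARNA10 at 801, SCARNA7 at 311, SCARNA2 at 264, SCARNA5 at 127 and SCARNA4 at 125 RPKM. The SCARNA5 and SCARNA4 genes lie in introns of ATG16L1 and KHDC4.

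The 101 members lay on 22 chromosomes. By position, 98 of them lay within the span of another gene on the same strand, in 77 host genes. Only SCARNA17 and SCARNA28 overlapped an exon of another gene on that strand, SNHG22 and MIR3609, and no member overlapped an exon on the opposite strand. Hosts for ribosomal proteins held 23 members with 21.9% of member reads. The members without a host span were SCARNA2, SNORD13 and SNORD89. Reads of unspliced host transcripts over a member would count toward that member. The olfactory receptor genes do not gauge such reads, and their part was not tested.

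Differences were tested with limma on log2(CPM + 10) across 4632 human genes whose 16 libraries averaged 50 CPM or more, which kept 15 members: 4 SNORD, 8 SNORA and 3 SCARNA. A gene is said to have changed where its p, adjusted by Benjamini and Hochberg over those genes, was at most 0.05. The filter uses the mean of all libraries, so the 86 members below it are described without a test unless stated. CPM values are scaled with TMM factors, so each difference is relative to the tested genes as a whole. The deposited values carry another constant per library, which moves every gene by -1.66 (log2) in zdna3 over zdna1, by -1.55 in zdna3 over zdna2, by 1.62 in zdna4 over zdna3 and by 0.83 in CL over CC of zdna3. It moved CL over CC by 0.17 in zdna1, 0.38 in zdna4 and 0.35 on average, and zdna2 over zdna1 by -0.11. Levels and ranges in CPM are on the TMM scale, and where the deposited scale reverses a called difference, the sentence says so.

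More members were called among the numbers than between the arms. Averaged over the arms, 4 of the 15 tested members differed among zdna1 to zdna4, where 8.85% of all tested genes did: SNORA73A (limma adjusted p = 1.12e-10), SNORD33 (2.78e-07), SNORD3A (3.62e-06) and SNORA13 (0.0341). SNORA13 passed the filter through zdna3 alone, so the count that can be read against that share is 3. Another 5 had an unadjusted p under 0.05. By edgeR's quasi-likelihood test on the recovered reads 5 members were called and by DESeq2 3. In the test of any difference among the 8 groups limma called SNORA73A, SNORD33 and SNORD3A (3 of 15), where the share of all genes was 13.3%. In these bulk libraries a lower level in each cell and fewer cells with the RNA cannot be told apart.

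SNORA73A, one of the 2 U17 RNAs needed for cleavage of the ribosomal RNA precursor, lies at chr1:28833877-28834083 of hg19 on the plus strand, in an intron of the span shared by RCC1 and the host transcript SNHG3. In zdna3 it stood at 862 and 925 CPM in CL and at 820.3 and 1024 CPM in CC. In zdna1 it stood at 545 and 577 CPM in CL and at 372 and 325 CPM in CC. In zdna2 it stood at 216 and 280.5 CPM in CL and at 251.5 and 252 CPM in CC, and in zdna4 at 329.7 and 473 CPM in CL and at 539.7 and 317 CPM in CC. The 4 zdna3 libraries lay above the other 12 and the 4 zdna2 libraries below the other 12, in either arm.

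Relative to the tested genes, SNORA73A was higher in zdna3 than in zdna2 by 1.82 ± 0.176 (log2 ± SE; limma adjusted p = 1.07e-11; 4 libraries of each), where 6% of all genes were called. On the deposited scale that difference was 0.31 and was not called (limma adjusted p = 0.0665). It was higher in zdna3 than in zdna1 by 1.02 ± 0.176 (adjusted p = 4.73e-05 by limma; 4.49% of genes called), a direction that the deposited scale reverses to -0.61. It was lower in zdna2 than in zdna1 by 0.80 (log2 -0.80, SE 0.131, limma adjusted p = 2.76e-05; 2.5% called). It was lower in zdna4 than in zdna3, at -1.14 ± 0.211 (limma adjusted p = 0.000192; 4.75% called), which on the deposited scale becomes 0.44. The difference of zdna4 over zdna2, 0.68 ± 0.176 (limma adjusted p = 0.0215; 2.48% called), was lost without any 1 of 5 libraries, with 0.49 and an adjusted p of 0.393 without replicate 1 of zdna4 CC. The other 4 libraries that ended it were replicate 1 of zdna2 CL, replicates 1 and 2 of zdna2 CC and replicate 2 of zdna4 CL. For zdna4 over zdna1 the difference was -0.12 (limma adjusted p = 0.878; 0.691% called).

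**Figure D1:**
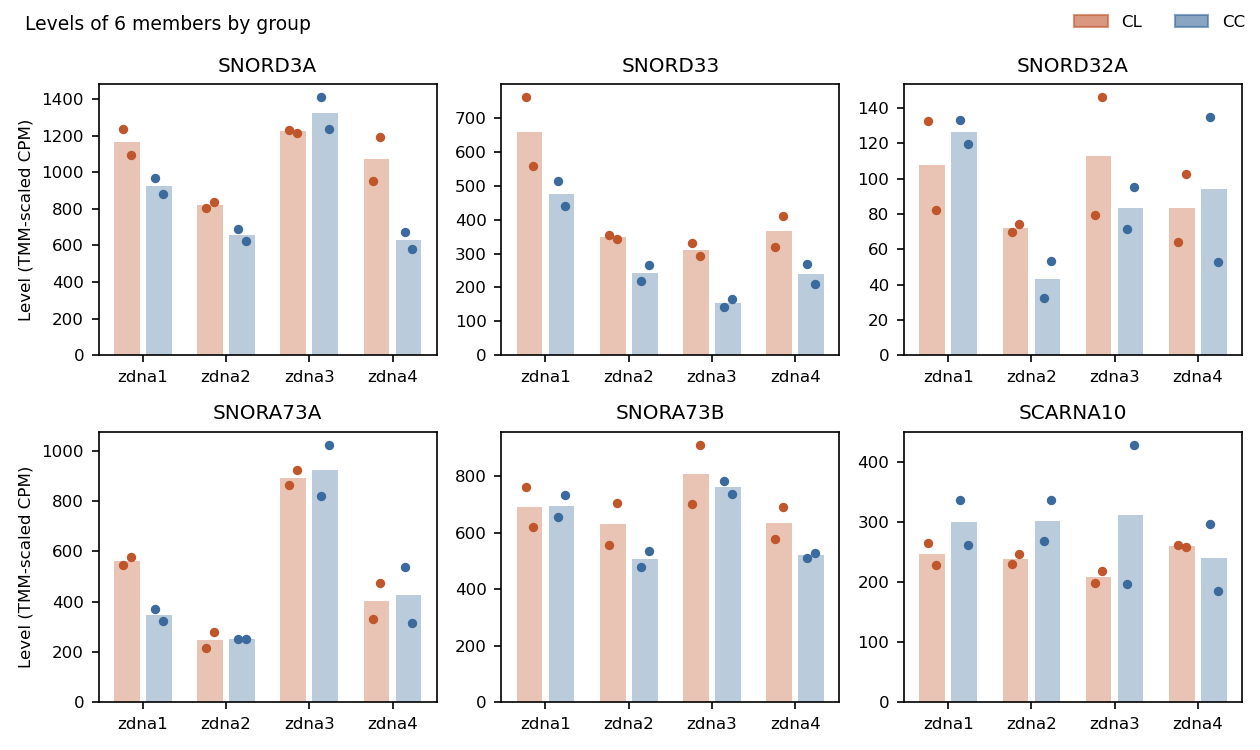
Level of 6 members in TMM-scaled CPM (vertical axes, each from 0) in CL (orange) and CC (blue) of zdna1 to zdna4; bars are means of 2 libraries and points the libraries. SNORA73A was highest in the zdna3 libraries (820.3 to 1024 CPM), which the deposited scale reverses against zdna1, and SNORD33 lay higher in CL than in CC in every number.

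SNORA73B lies downstream in the same span, at chr1:28835070-28835274. It ranged over 703 to 912.5 CPM in zdna3, 621 to 761 CPM in zdna1, 479 to 704 CPM in zdna2 and 513 to 692 CPM in zdna4. These ranges overlap for every pair of numbers except zdna3 and zdna4. The limma test among the numbers missed the threshold (adjusted p = 0.0553), while edgeR called it (0.0196). The follow-up of zdna3 over zdna2 gave 0.46 ± 0.147 (limma adjusted p = 0.0449), which the deposited scale reverses to -1.05, and 9 of the 16 fits that leave out 1 library ended it, with adjusted p-values up to 0.21. Those libraries were 3 of zdna2 and 3 of zdna3 (all but CL replicate 2 and CL replicate 1), both of zdna4 CC and replicate 2 of zdna1 CC.

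The share of SNORA73A among the reads of both U17 RNAs does not depend on the scale of a library. It was 53.1% of 433 reads in zdna3 (95% exact Clopper-Pearson interval 48.3% to 57.9%), 39.5% of 678 reads in zdna1 (35.8% to 43.3%), 30.3% of 476 reads in zdna2 (26.2% to 34.6%) and 39.1% of 616 reads in zdna4 (35.2% to 43.1%). Over single libraries it ran from 50.3% to 58.1% in zdna3, above the 27.9% to 34.4% of zdna2 and the 30.6% to 48.1% of zdna1. The zdna4 libraries, at 36.3% to 51.3%, reached into the zdna3 range through replicate 1 of CC, which rests on 39 reads. Within zdna1 the share was 44.9% in CL (39.8% to 50.1%) and 32.8% in CC (27.5% to 38.4%). The intervals cover counting error only, since the reads carry no molecular identifiers.

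**Figure D2:**
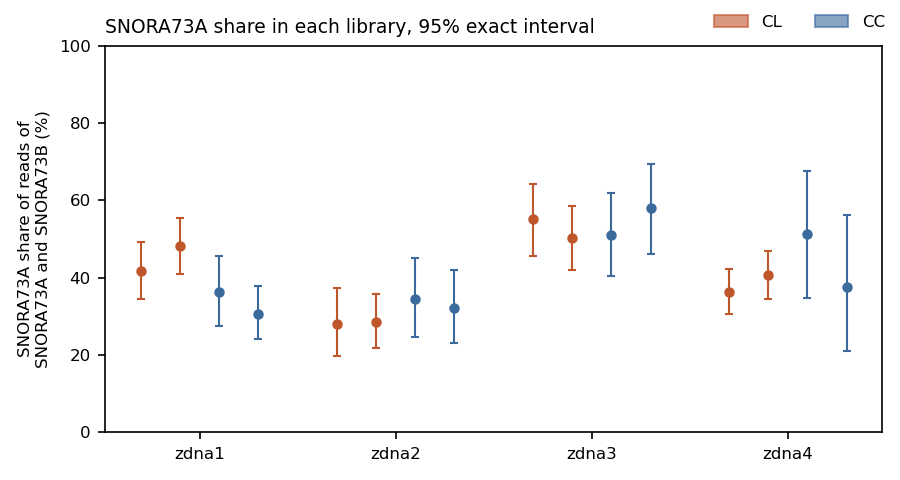
Share of SNORA73A among the reads of SNORA73A and SNORA73B (percent, vertical axis) in each of the 16 libraries, CL in orange and CC in blue, with 95% exact intervals. The 4 zdna3 libraries sit at 50.3% to 58.1% and the 4 zdna2 libraries at 27.9% to 34.4%.

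No change was called in the hosts of the U17 RNAs. RCC1, which loads the small GTPase Ran, and SNHG3, the noncoding transcript of the same span, were called in no comparison. In zdna3 over zdna2 RCC1 differed by 0.20 (limma adjusted p = 0.72), which the deposited scale reverses to -1.23, and SNHG3 by -0.00 (0.999), beside 1.82 for SNORA73A. In zdna3 over zdna1 they differed by 0.48 (0.297) and 0.23 (0.725), which the deposited scale reverses to -1.05 and -1.25. The difference between a member and its host was not tested.

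SNORD33, which guides methylation of 18S ribosomal RNA, lies at chr19:49993874-49993956 of hg19, in an intron of RPL13A, a gene for a large-subunit protein. In zdna1 its level was 761 and 558 CPM in CL and 514 and 439 CPM in CC. In zdna2 it was 356 and 343.5 CPM in CL and 219 and 267 CPM in CC. In zdna3 it was 331.5 and 292 CPM in CL and 143 and 167 CPM in CC, and in zdna4 320.1 and 411 CPM in CL and 269.8 and 211 CPM in CC. All 4 zdna1 libraries lay above the other 12. Relative to zdna1, SNORD33 was lower in zdna3 (log2 -1.30, SE 0.194, limma adjusted p = 2.78e-06), in zdna2 (-0.91, SE 0.145, 1.7e-05) and in zdna4 (-0.90, SE 0.193, 0.00648). The zdna4 difference was lost without replicate 1 of zdna1 CL (-0.79, limma adjusted p = 0.0706) or replicate 2 of zdna4 CC (-0.81, 0.117). Among zdna2, zdna3 and zdna4 no pair was called, with differences of -0.39 to 0.41.

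SNORD32A, another methylation guide, lies in the same host, at chr19:49993223-49993304. It held 178 reads beside 779 of SNORD33, or 18.6% of the pair (16.2% to 21.2%). Its share was 28.9% of 90 reads in zdna3 (19.8% to 39.4%), 17.0% of 400 in zdna1, 16.4% of 207 in zdna2 and 19.2% of 260 in zdna4. Its level was 32.5 to 74.4 CPM in zdna2 and 82.4 to 133 CPM in zdna1, without overlap, a difference of -0.94 ± 0.269 (limma adjusted p = 0.0415). That call was lost in 7 of the 16 fits that leave out 1 library, with adjusted p-values up to 0.208: without any zdna1 library but CL replicate 2, any zdna2 library but CC replicate 2, or replicate 2 of zdna3 CL. It was also lost without array weights (0.463).

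RPL13A itself, at 1182 ± 34.9 CPM in zdna1 (SD, n = 4 libraries), stood at 1129 ± 53.1 CPM in zdna2, 1346 ± 72.4 CPM in zdna3 and 871 ± 187 CPM in zdna4. It was lower in zdna4 than in zdna1 (log2 -0.46, limma adjusted p = 0.0242), in the same direction as SNORD33; on the deposited scale this missed the threshold (-0.51, limma adjusted p = 0.0550). In zdna3 over zdna1 it differed by 0.18 (limma adjusted p = 0.409), beside -1.30 for SNORD33, and the deposited scale reverses its value to -1.45. In zdna2 over zdna1 it differed by -0.07 (limma adjusted p = 0.769), beside -0.91 for SNORD33.

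**Figure D3:**
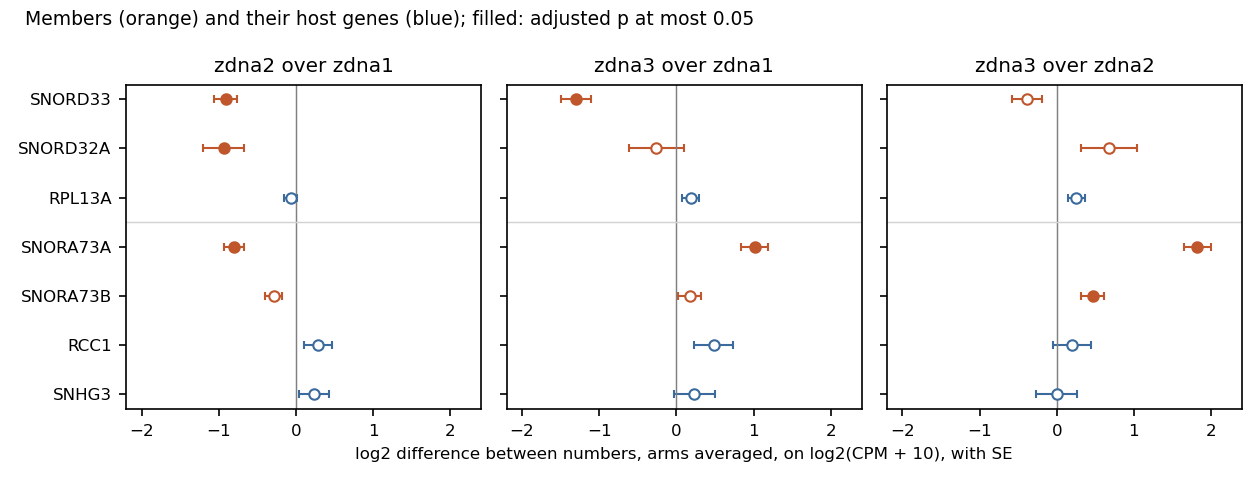
Differences between numbers, averaged over the arms (log2, horizontal axes; bars are SE), for 4 members (orange) and their host genes (blue); filled points have an adjusted p of at most 0.05. SNORD33 stood at -1.30 and RPL13A at 0.18 in zdna3 over zdna1, and SNORA73A at 1.82 and SNHG3 at -0.00 in zdna3 over zdna2; on the deposited scale every value above 0 in the zdna3 over zdna1 and zdna3 over zdna2 panels turns negative except SNORA73A in zdna3 over zdna2.

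SNORD3A, the U3 RNA needed for early cleavages of the ribosomal RNA precursor, lies at chr17:19091329-19091545 of hg19, inside the spans of LOC388436 and LOC79999 and outside their exons. In zdna3 its level was 1233 and 1217 CPM in CL and 1409 and 1238 CPM in CC. In zdna1 it was 1236 and 1096 CPM in CL and 966 and 878 CPM in CC. In zdna2 it was 803 and 836 CPM in CL and 689.6 and 626 CPM in CC, and in zdna4 954 and 1192 CPM in CL and 675 and 581 CPM in CC. The zdna2 libraries all lay below those of zdna3 and zdna1. It was higher in zdna3 than in zdna2 by 0.79 ± 0.124 (limma adjusted p = 6.49e-06), which the deposited scale reverses to -0.74. It was lower in zdna2 than in zdna1 (-0.49 ± 0.0922, limma adjusted p = 0.000435). It was lower in zdna4 than in zdna3 (-0.63 ± 0.148, limma adjusted p = 0.00517), reversed to 0.96 on the deposited scale and lost without replicate 2 of zdna4 CC (-0.58, adjusted p = 0.067). The copies SNORD3B-1, SNORD3B-2, SNORD3C and SNORD3D are listed with 0 reads, and reads that fit several copies were not counted.

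SNORA13, a box H/ACA RNA in an intron of the noncoding gene EPB41L4A-AS1 at chr5:111497182-111497314, rested on few reads. It passed the filter, at a mean of 50.4 CPM by library totals, only through zdna3, since the other 12 libraries averaged 26.1 CPM, so among tested genes it had to be high there. In zdna3 it had 7 and 5 reads in CL and 10 and 7 in CC, for 60.8 to 178 CPM. In the other numbers it had 0 to 11 reads per library, and 49.1 CPM at most. It was higher in zdna3 than in zdna2 by 1.93 ± 0.528 (limma adjusted p = 0.0162) and than in zdna1 by 1.71 ± 0.526 (0.0444), and lower in zdna4 than in zdna3 by 2.19 (log2 -2.19, SE 0.632, adjusted p = 0.0306). The test among the numbers was lost in 7 of the 16 fits that leave out 1 library, namely each of the 4 zdna3 libraries, both of zdna1 CC and replicate 2 of zdna2 CL, with adjusted p-values up to 0.164. The pairs were lost in 10 such fits for zdna3 over zdna1 (every zdna1 and zdna3 library and both of zdna2 CL), in 3 for zdna3 over zdna2 (every zdna3 library but CL replicate 2) and in 5 for zdna4 over zdna3 (the same 3 and replicate 1 of zdna4 CL and of zdna4 CC). On the deposited scale none of these was called: the test among the numbers gave 0.459, and the pairs 0.29 for zdna3 over zdna1 (limma adjusted p = 0.523), 0.59 for zdna3 over zdna2 (0.193) and -0.76 for zdna4 over zdna3 (0.193). Its host held 0 to 23.8 CPM and was not tested.

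With the filter at 20 CPM, 44 members were tested among 7957 genes. SNORA66 and SNORA74B were then called among the numbers and SNORA8 and SNORD17 among the 8 groups. These were named after their values were seen. SNORA66 and SNORA74B passed that filter only through zdna3, with means of 17.1 and 5.64 CPM by library totals over the other 12 libraries, so their calls are no support for a difference. SNORA66, in an intron of RPL5, had 7 and 7 reads in CL and 10 and 2 in CC of zdna3, against 1 and 4 in CL and 0 and 2 in CC of zdna2. RPL5 was lower in zdna3 than in zdna2 by 0.59 (log2 -0.59, limma adjusted p = 0.00724 at 50 CPM). SNORA74B, in an intron of ATP6V0E1, had 2 and 1 reads in CL and 6 and 5 in CC of zdna3, and 1 read in all 4 libraries of zdna2. SNORD17, in an intron of SNX5, had 5 and 3 reads in CL and 8 and 7 in CC of zdna3. In zdna4 it had 16 and 9 reads in CL and 0 and 0 in CC, but the CL libraries there are deeper. Its level was 66.3 and 36.5 CPM in CL and 143 and 167 CPM in CC of zdna3. In zdna4 CL it was 51.2 and 40.2 CPM, within the zdna3 CL range. With the filter at 20 CPM it was lower in zdna4 than in zdna3 (log2 -2.07, limma adjusted p = 0.0436). That size depends on the pseudocount, since zdna4 CC had 0 reads. SNORA8, 1 of 6 members in TAF1D, had 8 and 12 reads in CL and 2 and 1 in CC of zdna2.

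CL and CC differed at few members. In zdna1 limma called 0 of 15, where 0.756% of genes were called; 4 had an unadjusted p under 0.05, edgeR called 1 and DESeq2 0. In zdna2 it called 0 (0.173% of genes; 2 at an unadjusted p under 0.05; 0 by edgeR and by DESeq2). In zdna3 it called 0 (0.0864%; 1 at an unadjusted p under 0.05; 0 by either tool). In zdna4 it called 1 (1.17% of genes; 4 at an unadjusted p under 0.05; edgeR 1, SNORD3A; DESeq2 0), and averaged over the numbers 1 (0.432%; edgeR 2, DESeq2 1). The median difference over the 15 members was -0.01 in zdna1, 0.11 in zdna2, -0.46 in zdna3 and 0.28 in zdna4, beside -0.00, -0.01, 0.06 and 0.08 over all tested genes; the shifts of 0.17 and 0.83 reverse the signs of the zdna1 and zdna3 medians on the deposited scale.

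SNORD33 was higher in CL when the numbers were averaged, by 0.63 ± 0.137 (limma adjusted p = 0.0117; edgeR 0.00531; DESeq2 0.0336). Both CL libraries lay above both CC libraries in each of the 4 numbers. In no single number did its difference pass: it was 0.45 in zdna1, 0.51 in zdna2, 0.97 in zdna3 and 0.58 in zdna4, with limma adjusted p-values of 0.401 to 0.618. The average was lost without replicate 1 of zdna1 CL (0.57, limma adjusted p = 0.0608), replicate 1 of zdna3 CL (0.61, 0.0612) or replicate 2 of zdna4 CC (0.59, 0.0796), and without a filter on low genes (0.398). RPL13A differed by 0.10 on average (limma adjusted p = 0.744), and SNORD32A by 0.18 (0.881).

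SNORD3A differed between the arms by 0.32 ± 0.0873 on average (limma adjusted p = 0.0807; edgeR called it at 0.0324). In zdna4 it differed by 0.76 ± 0.209 (limma adjusted p = 0.0509; edgeR 0.0314). Both CL libraries lay above both CC libraries in zdna1, zdna2 and zdna4, and below them in zdna3, where the shift of 0.83 on the deposited scale reverses its difference of -0.11. SNORA73A differed by 0.67 ± 0.184 in zdna1 (limma adjusted p = 0.0661; edgeR called it at 0.0267), and by -0.03, -0.04 and -0.07 in zdna2, zdna3 and zdna4, values that the deposited scale moves to 0 or above. The test that the 4 differences are equal called 0 of 15 members, where 0.864% of genes were called; 5 had an unadjusted p under 0.05, and edgeR and DESeq2 called 0.

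SNORA53, a box H/ACA RNA of 250 bases in an intron of the phosphate carrier gene SLC25A3 at chr12:98993413-98993662, was the member called in zdna4 (limma adjusted p = 0.0408). By library totals it averaged 48.9 CPM in the CC libraries and 63.4 CPM in the CL libraries. It thus passed the 50 CPM filter only with CL, the arm where it was called higher. Without the zdna4 libraries it averaged 63.1 CPM, and without those of zdna1 49.96 CPM. It had 23 and 15 reads in zdna4 CL and 0 and 0 in zdna4 CC. The CC libraries together totalled 80221 reads, against 535364 in CL. A ratio by library totals leaves out the counting error of the CL reads and the spread between libraries. So taken, against a floor of 3 reads over both CC libraries, SNORA53 had a CPM 1.90-fold higher in CL. edgeR did not call it (adjusted p = 0.124), DESeq2 gave it no adjusted p, and 10 of the 16 fits that leave out 1 library lost it, with adjusted p-values up to 0.211. Those left out any library of zdna4 or zdna1, or replicate 2 of zdna2 CL or zdna2 CC. With a pseudocount of 20 its adjusted p was 0.0582. SLC25A3 differed by 0.12 (limma adjusted p = 0.973). SNORA23, in an intron of IPO7, likewise had 21 and 12 reads in zdna4 CL and 0 and 0 in zdna4 CC, without passing (limma adjusted p = 0.0737). By library totals SNORA23 averaged 47.2 CPM in CC and 54.6 CPM in CL, so it too passed the filter only with CL.

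At the ends of the arm comparisons no member passed other than SNORA53 in zdna4 and SNORD33 on average. In zdna1 SCARNA2 differed by 0.93 and SNORA23 by 0.77, and SNORA13 by -1.05 and SNORD15B by -0.40. In zdna2 SNORA13 differed by 0.69 and SNORD32A by 0.66, and SNORA23 by -0.67 and SCARNA10 by -0.32. In zdna3 the ends were SNORD15B at 1.02 and SNORA13 at -1.10, next to SNORA63 at -1.04. In zdna4 the highest were SNORA53 at 3.00 and SNORA23 at 2.81, both set against 0 reads in CC. The lowest there were SNORA33 at -1.04 and SCARNA2 at -0.68. On average SNORA53 differed by 0.63, next to SNORD33, and SNORA33 by -0.41. SNORA13 and SNORA23 stood at opposite ends in different numbers. Apart from SNORA53 and SNORA23 in zdna4 and SNORD33 on average, the limma adjusted p-values of the members named here were 0.273 or higher in those comparisons.

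**Figure D4:**
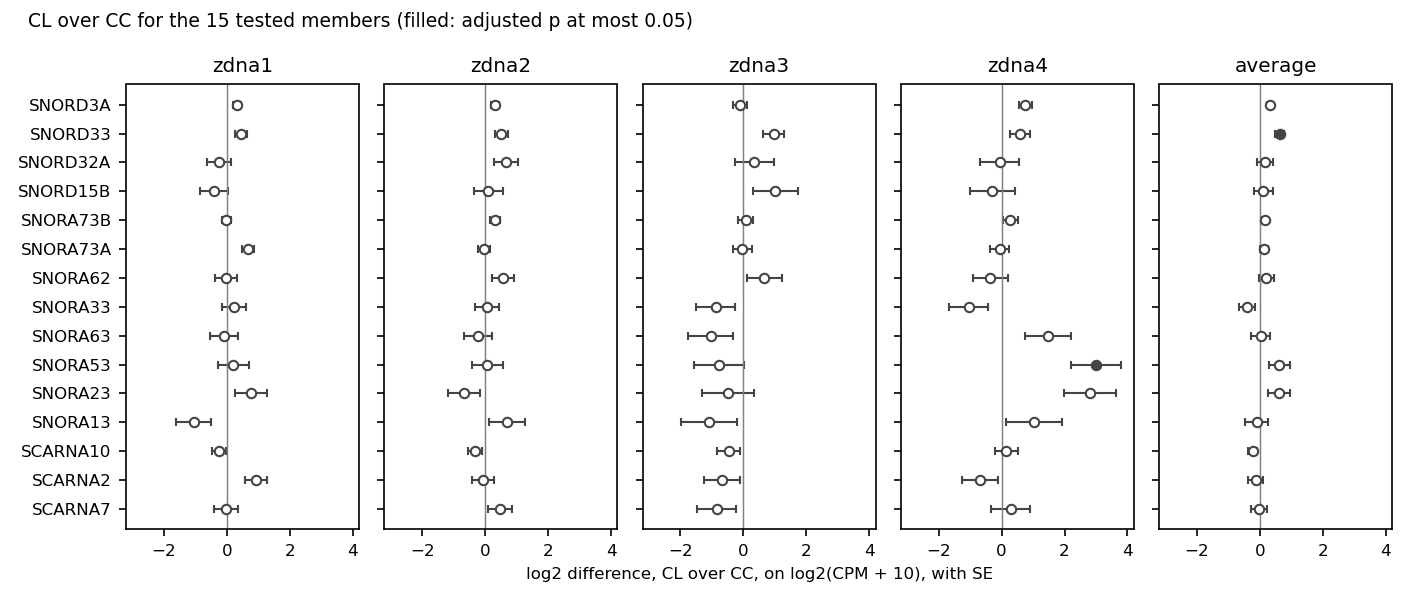
Difference of CL over CC (log2, horizontal axes; bars are SE) of the 15 tested members in zdna1 to zdna4 and averaged; filled points have an adjusted p of at most 0.05. SNORD33 lies at 0.45 to 0.97 in the 4 numbers and is filled in the average at 0.63; SNORA53 at 3.00 in zdna4 is set against 0 reads, so its fitted size depends on the pseudocount.

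The 3 tested SCARNA members were called in no test. SCARNA10, which combines both box types and lies in an intron of the condensin gene NCAPD2 at chr12:6619388-6619717, held 199 to 265 CPM in the CL libraries and 185 to 429 CPM in the CC libraries. Its average difference was -0.22 (limma adjusted p = 0.678), a sign that the shift of 0.35 on the deposited scale reverses. NCAPD2 differed among the numbers (limma adjusted p = 0.00858), with zdna4 over zdna2 at 0.82 (0.00743). SCARNA7, in an intron of KPNA4, held 26.5 and 48.7 CPM in zdna3 CL and 35.7 and 143 CPM in zdna3 CC. Its test among the numbers gave an unadjusted p of 0.0374 and a limma adjusted p of 0.176.

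RNAs with their own promoter were a list of 9 genes. SNORD3A and SCARNA2 (chr1:109642815-109643234) were tested, SNORD13 and SCARNA17 had 47 and 28 reads in all, and SNORD118 and the 4 other U3 copies had 0. SCARNA2 had 223 and 120.4 CPM in CL and 97.5 and 68.4 CPM in CC of zdna1, without overlap (0.93 ± 0.353, limma adjusted p = 0.273). In zdna4 it had 80.0 and 89.3 CPM in CL and 189 and 106 CPM in CC. In the list of 15 snoRNAs for ribosomal RNA processing, which shares its U3 and U8 entries with the one before, SNORD3A, SNORA73A and SNORA73B were tested, and SNORD3A and SNORA73A were called among the numbers. Of 123 snoRNA genes of the imprinted clusters on chromosomes 14 and 15, 103 had no read and the rest 39 reads together.

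The summed level of each class was described without a test. Box C/D RNAs summed to 2800 and 2364 CPM in CL and 2287 and 2007 CPM in CC of zdna1, and to 1633 and 1729 CPM in CL and 1347 and 1406 CPM in CC of zdna2. They summed to 2002 and 2019.6 CPM in CL and 2015 and 2096 CPM in CC of zdna3, and to 1818 and 2197 CPM in CL and 1511 and 1241 CPM in CC of zdna4. CL lay above CC without overlap in zdna1, zdna2 and zdna4. Without SNORD3A and SNORD33 the arms overlapped in every number: the other 27 box C/D members summed to 803 and 710 CPM in CL and 807 and 690 CPM in CC of zdna1, to 475 and 550 CPM in CL and 438 and 512 CPM in CC of zdna2, to 438 and 511 CPM in CL and 464 and 691 CPM in CC of zdna3, and to 544 and 594 CPM in CL and 567 and 449 CPM in CC of zdna4.

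Box H/ACA RNAs summed to 3050 and 3309 CPM in CL and 3852 and 3762 CPM in CC of zdna3, and so lay lower in CL there without overlap (log2 -0.26), which the deposited scale reverses to 0.57. In zdna1 they summed to 3352 and 2719 CPM in CL and 2385 and 2332 CPM in CC, and in zdna4 to 2013 and 2434 CPM in CL and 1889 and 1770 CPM in CC, both without overlap. In zdna2 they summed to 1927 and 2095 CPM in CL and 1639 and 1925 CPM in CC. SCARNA members summed to 385 and 535 CPM in CL and 588 and 833 CPM in CC of zdna3, and to 555 to 810 CPM in the 12 other libraries. Over the 4 numbers the CL over CC ratio of the sums averaged 0.27 ± 0.236 (log2, SD over the numbers) for box C/D, 0.14 ± 0.278 for box H/ACA and -0.21 ± 0.291 for SCARNA, the last reversed to 0.15 on the deposited scale.

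**Figure D5:**
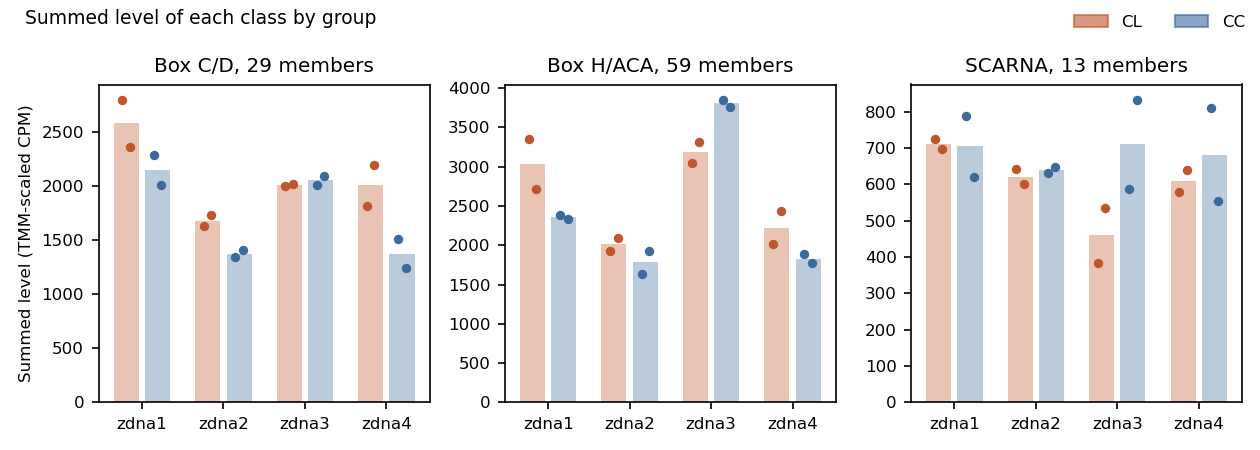
Summed TMM-scaled CPM of the box C/D, box H/ACA and SCARNA members (vertical axes, each from 0) in CL (orange) and CC (blue) of zdna1 to zdna4; bars are means of 2 libraries and points the libraries. The mean box H/ACA sums were highest in zdna3 (3179 CPM in CL and 3807 CPM in CC), though 1 zdna1 CL library, at 3352 CPM, lay above both zdna3 CL libraries; on the deposited scale zdna3 lies lower relative to the other numbers by about the shift given for all genes.

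The 86 members below 50 CPM, with 30.4% of member reads, summed to 1841 ± 330 CPM in zdna1 (SD, n = 4 libraries), 1252 ± 127 CPM in zdna2, 1800 ± 360 CPM in zdna3 and 1258 ± 184 CPM in zdna4. The 57 box H/ACA members other than the U17 RNAs summed to 1549 ± 347 CPM in zdna1, 1077 ± 114 CPM in zdna2, 1801 ± 386 CPM in zdna3 and 1033 ± 192 CPM in zdna4. Members that share a host are not independent: the 6 in TAF1D summed to 163 ± 39.3 CPM in zdna1, 96.9 ± 29.2 CPM in zdna2, 93.4 ± 26.2 CPM in zdna3 and 93.7 ± 65.4 CPM in zdna4, and the 4 in SNHG17, all of the SNORA71 family, held 134 reads in all.

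The proteins that bind these RNAs were tested at the messenger level. All 4 core proteins of box C/D particles (FBL, NOP56, NOP58 and SNU13) passed the filter. None was called between arms, and NOP58 was called among the numbers (limma adjusted p = 0.0217), at 126 ± 97.4 CPM in zdna4 and 207 ± 11.8 CPM in zdna2 (log2 -1.36, limma adjusted p = 0.0168). NOP56 was higher in zdna2 than in zdna1 by 0.64 (limma adjusted p = 0.0441), which missed the threshold on the deposited scale (0.54, adjusted p = 0.128). FBL, fibrillarin itself, ran from 146 to 351 CPM without a call. All 4 core proteins of H/ACA particles (DKC1, GAR1, NHP2 and NOP10) were tested and none was called in any comparison or pair. DKC1, dyskerin, ran from 188 to 365 CPM.

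Of 9 assembly factors 4 were tested and none was called between arms or among the numbers as a whole. Between pairs of numbers ZNHIT6 was lower in zdna3 than in zdna2 (log2 -1.20, limma adjusted p = 0.0437), and RUVBL2 lower in zdna4 than in zdna3 (-1.22, 0.0203), which the deposited scale reverses to 0.27. Of 15 exosome and 3' trimming genes 7 were tested and 0 called in any comparison or pair. Of 10 Cajal body and nucleolar scaffold genes 5 were tested, and NOLC1, a chaperone of both particle types, was called among the numbers (limma adjusted p = 0.0105), higher in zdna3 than in zdna1 by 0.92 (0.00268), a direction that the deposited scale reverses through its shift of -1.66. Of 10 genes of the little elongation complex and SNAPc, which serve snoRNAs with their own promoter, 4 were tested. Of these 4, 1 was called among the numbers (8.85% of all tested genes) and 1 among the 8 groups (13.3%). In zdna2 over zdna1 1 was higher (2.5% of genes called). SNAPC1 was lower in CL on average (log2 -0.64, limma adjusted p = 0.00846) and in zdna1 (-0.87, 0.0141); on the deposited scale neither was called (-0.30, limma adjusted p = 0.0918, and -0.71, 0.123).

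Of 24 noncoding host genes 8 were tested, and none was called between arms or among the numbers; ZFAS1 was called among the 8 groups (limma adjusted p = 0.0249). Of the 77 hosts of members 55 were tested. Between arms 1 was called, beside 0.756% of all tested genes in zdna1 and 0.432% on average: HSPA8, a heat shock cognate chaperone and host of SNORD14C, higher in CL by 0.63 in zdna1 (limma adjusted p = 0.000109) and by 0.32 on average (0.0136). Among the numbers 11 of the 55 hosts were called, where 8.85% of all tested genes were, including RPL13A, NCAPD2, KPNA4, RPL5 and NCL, the gene of nucleolin. HSPA8 was higher in zdna3 than in zdna1 by 0.85 (limma adjusted p = 1.18e-08), also reversed by that shift, and SNORD14C had 24 reads in all.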

How the data were processed

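Total RNA of 16 U2OS libraries was sequenced after Trizol extraction with an Abclonal kit, per the labels' protocols. Whether the kit selected poly(A) RNA or removed ribosomal RNA is not given in the sources used here. Paired reads were counted over exons by gene with featureCounts 2.0.1 without a strand option, from files of uniquely aligned reads, per the file headers, so reads of overlapping or antisense genes cannot be told apart. Trim Galore 0.6.6, STAR, bedtools 2.29.2 and the builds hg19 and dm6 are named in the submitters' processing notes. The deposited values are a signal: whole reads multiplied by the authors' 1 constant per library, whose origin is not given. Dividing by the smallest nonzero value gave whole reads for 100% of nonzero values, within 0.1 read. The count test planned as an alternative was run on these reads, and called 490 genes among the numbers (limma 410) and 22 for the average of the arms (limma 20). The added contigs were left out.

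CPM were scaled by TMM factors (edgeR 4.0.16) and log2(CPM + 10) was fitted with 8 group means in limma 3.58.1 under R 4.3.3, with array weights and an intensity trend. The Benjamini-Hochberg threshold was 0.05. edgeR and DESeq2 1.42.0 were alternatives, as were other scalings, filters, pseudocounts, left-out libraries and a replicate block. The scripts were tested on simulated data. Named were the members called in any test, the 5 of each class highest per kilobase, those with their own promoter, the 2 highest and 2 lowest tested in each arm comparison, their hosts, and called genes of the lists. Members and lists were chosen with earlier results of these data known. Exact Clopper-Pearson intervals are at 95%.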

Additional observations from a re-analysis of the deposited data

How the results depend on the processing

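Counts of called members are given for CL over CC in zdna1 (0 in the fit described), zdna3 (0), zdna4 (1), their average (1), the test of equal differences (0), the numbers (4) and the 8 groups (3). On the deposited scale they were 1 in zdna1, 5 in zdna3, 3 in zdna4, 6 for the average, 1 for equal differences, 14 for the numbers and 14 for the 8 groups, where 0.864%, 22.8%, 4.53%, 22.0%, 7.34%, 94.8% and 94.5% of all tested genes were called on that scale. With edgeR they were 1 in zdna1, 2 for the average and 5 for the 8 groups. With DESeq2 zdna4 gave 0. Without a filter zdna4 and the average gave 0 each. With library totals zdna4 gave 2, and without array weights zdna4 gave 3 and the 8 groups 6. With the 4 libraries of a number alone, zdna1 gave 1 and zdna4 0. At 20 CPM the 8 groups gave 7. edgeR at 20 CPM, an alternative chosen after seeing the data, gave 1 in zdna1, 2 for the average, 9 for the numbers and 8 for the 8 groups. These 20 CPM counts for numbers and groups include SNORA66 and, by edgeR, SNORA74B, with SNORA68 among the numbers. Those members passed that filter only through zdna3 (SNORA68 averaged 11.3 CPM without zdna3), so they add no support. The share of all genes called at 20 CPM is not given here. Leaving out 1 library at a time gave 0 to 1 in zdna1, 0 to 1 in zdna4 and 0 to 2 for the average. Leaving out both zdna4 CC libraries gives no zdna4 value. The replicate block gave 0, 0, 0 and 1 calls in zdna1 to zdna4, 1 for the average, 4 for the numbers and 3 for the 8 groups, changing no count. In each group the difference of replicate 2 from replicate 1 was taken gene by gene. Between groups these differences correlated at -0.0195 to 0.0431 over 28 pairs of groups. Replicates labelled 1 or 2 thus showed no pairing across groups.

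On the deposited scale 5 differences reversed: SNORA73A at -0.61 in zdna3 over zdna1, SNORA73B at -1.05 and SNORD3A at -0.74 in zdna3 over zdna2, and SNORA73A at 0.44 and SNORD3A at 0.96 in zdna4 over zdna3. Without a filter, zdna4 over zdna3 was lost for SNORA73A (limma adjusted p = 0.123) and SNORD3A (0.126), zdna4 over zdna2 for SNORA73A (0.389) and zdna4 over zdna1 for SNORD33 (0.177). The arm ratios of the class sums became 0.62 for box C/D, 0.49 for box H/ACA and 0.15 for SCARNA. These follow from the shift of all genes on that scale; the causes of the other changes were not tested. Depth limits the rarer members most: in the shallowest library 1 read was worth 25.4 CPM, so a member at 0 reads there may still lie near the 50 CPM filter.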
